A study of Danio rerio with 63 samples.

Results

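The genes described here are those of the circadian clock of the zebrafish brain. They were chosen by symbol from a list of 39 genes: the activators of the Clock and Bmal family, the period, cryptochrome, Chrono and Dec repressors, the Rev-erb and ROR nuclear receptors, the D-box binding factors and the casein kinase 1 delta pair. Of these, 38 had a row among the 15418 genes with counts, and ciartb was not analysed here.

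The study compared adult zebrafish that carry a mutation of cyp19a1b, which encodes brain aromatase, an estrogen-producing enzyme, with WT fish. Transcripts were counted by BRB-seq, which reads the 3′ ends of transcripts and gives every captured molecule a unique molecular identifier (UMI), in the olfactory bulbs (OB), the telencephalon (Tel) and the hypothalamus. The mutant fish came from 1 cyp19a1b-mutant line made with TALENs, which carries a frameshifting deletion in that gene in every cell, and the WT fish were of the AB strain. Each library held RNA of 1 region from 3 pooled adults of the same sex and genotype, all kept under 14 h of light and 10 h of darkness. The groups were 4 pools of mutant females, 6 of WT females, 5 of mutant males and 6 of WT males, each with 1 library per region, which gave 63 libraries of 21 pools.

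The code of each pool joins a digit to 1 of 3 letters, A, B and C. There were 4 WT pools per letter, a pair of each sex. The mutant pools were 3 of letter C (1 female and 2 male), 3 of letter B (1 female and 2 male) and 3 of letter A (2 female and 1 male). What a letter stands for and the hour at which the fish were collected are not given in the sources used here. Libraries that share a code, a sex and a genotype were treated as 3 regions of 1 set of fish.

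In the vertebrate clock, Clock and Bmal proteins switch on the genes of their own repressors, the period (per) and cryptochrome (cry) genes, which then shut the activators off, so that the transcripts of the loop rise and fall with the time of day. Another loop runs through Rev-erb repressors and ROR activators, which act on the Bmal genes, and a further one through D-box binding factors such as Tef and their repressors of the Nfil3 family. In zebrafish, clocks run in most tissues, many cells respond to light directly, and per2 and cry1a are known as light-induced genes.

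The libraries held 21444 to 1033008 UMIs, and the median library 281160. The mutant pools of every letter had a lower median total than WT in each region. For letters C, B and A, the mutant medians were 226555, 112349 and 207510 UMIs in the OB. They were 261517, 178541 and 171607 in the hypothalamus and 177801, 173909 and 33985 in the Tel. The mutant pools of letter A had totals of 31219 to 276840 UMIs in the OB, 78533 to 217705 in the hypothalamus and 21444 to 302326 in the Tel, against 189762 to 1033008, 460620 to 662898 and 151209 to 693487 in the WT pools of letter A in the same regions. The targeted transcript, cyp19a1b, was still counted in mutants, at a median of 1007 CPM (counts per 1e6 counted UMIs, after scaling for library composition) in the Tel of mutant females against 1740 CPM in that of WT females. Mutant male pool A1 stood apart: it had 49.5 CPM of cyp19a1b in the Tel and 93.7 CPM in the hypothalamus, the lowest of its group in both. The clock gene calls within letter A and the calls of the interaction of genotype with letter are also given without it. Telencephalic and hypothalamic markers followed the labels, except in 1 Tel library. Telencephalic genes summed to a median of 1717 CPM in the Tel against 269 CPM in the OB and 225 CPM in the hypothalamus. Hypothalamic genes summed to 46.5 CPM in the OB, 895 CPM in the hypothalamus and 105 CPM in the Tel. Olfactory sensory genes summed to 2259, 55.9 and 63.6 CPM in the same order. They mark sensory neurons that give input to the OB, so they could not show what tissue the OB libraries held. Neuron markers had a median of 1414 CPM in the OB, against 12430.3 CPM in the hypothalamus and 9184 CPM in the Tel. Microglia markers were at 15269.9, 571 and 538 CPM in the same order. The Tel library of mutant male pool B2 had 1766 CPM of the hypothalamic genes, of which 1501 CPM was oxt, against at most 210.2 CPM in the other Tel libraries.

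Clock transcripts were scarce. A filter on low counts kept 14 of the 38 genes in the OB, 22 in the hypothalamus and 18 in the Tel. In all, 22 genes were tested in at least 1 region, 14 of them in all 3, with 178 to 5302 UMIs each over the 63 libraries. The other 16 genes held 9 to 194 UMIs each and were not tested: clocka, clockb, npas2, arntl1b, arntl2, per1a, per3, bhlhe41, cry5, nr1d1, nr1d4a, nr1d4b, rorca, dbpa, dbpb and tefb. Of the Clock and Bmal activators, only arntl1a, a Bmal1 gene, could be tested.

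Clock genes were called between the pool letters in all 3 regions. The counts between genotypes and sexes over all letters, given below, come from smaller groups and a main fit without the letter. They also needed at least 1.5-fold, so those counts and these cannot be ranked against each other. The pool letter was tested in each region over the 21 libraries, with group as a covariate, by the quasi-likelihood F test of edgeR, with the p-values adjusted over all genes tested after Benjamini and Hochberg. At an adjusted p of 0.05 or less, it called 8 of 14 clock genes in the OB, where 5.77% of all genes were called, 11 of 22 in the hypothalamus (19% of all genes) and 3 of 18 in the Tel (9.92% of all genes). In all, 13 clock genes were called in at least 1 region, and ciarta, cry-dash and tefa in all 3. Of the genes so called, the 8 of the OB and the 3 of the Tel were higher in C than in B and lower in B than in A. In the hypothalamus 8 of the 11 were higher in C than in B, and cry3b, cry4 and nfil3-5 were lower. The contrast of C with B alone, where a call also needed at least 1.5-fold, gave calls in both directions in every region: 8 clock genes were higher in C and 2 lower in the OB (6.48% of all genes were called), 9 higher and 4 lower in the hypothalamus (10.6%), and 4 higher and 3 lower in the Tel (9.38%). With the library total alone as the scale, the hypothalamus had 6 higher and 5 lower. Apart from the scaling, the counts of this contrast were not recomputed under the alternatives.

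ciarta, a Chrono gene whose product represses Clock and Bmal, had the largest log2 fold change of C over B of the clock genes tested in each region. In the hypothalamus of WT fish it was counted at 136, 136, 154 and 185 CPM in the letter C pools, at 3.61, 11.7, 14.9 and 19.2 CPM in the letter B pools and at 113, 131, 153 and 156 CPM in the letter A pools. The letter B pools lay far below both other letters, which overlapped. Over all pools the log2 fold change of C over B was 3.44 ± 0.38 (SE, adjusted p of the pool letter 7.76e-06, edgeR, Benjamini-Hochberg).

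The same order was seen in the other regions of the same fish. In the OB, ciarta had 132, 145, 171 and 234 CPM in WT pools of letter C, 27.5, 29.7, 32.7 and 37.6 CPM in those of letter B, and 121, 121, 158 and 164 CPM in those of letter A, with a log2 fold change of C over B of 2.37 ± 0.32 over all pools. In the Tel it had 66.2, 81.8, 91.5 and 102 CPM in WT pools of letter C, 11.8, 16.2, 21.8 and 24.5 CPM in those of letter B, and 33.5, 89.6, 96.1 and 124 CPM in those of letter A, with a log2 fold change of 2.24 ± 0.39. In both regions the WT letter B pools lay below all WT pools of the other letters. In the hypothalamus all 30 alternative fits in which ciarta was tested kept the call. The OB lost it in 1 of 30, with thinned counts, and the Tel in 1 of 29, with male libraries alone.

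**Figure D1:**
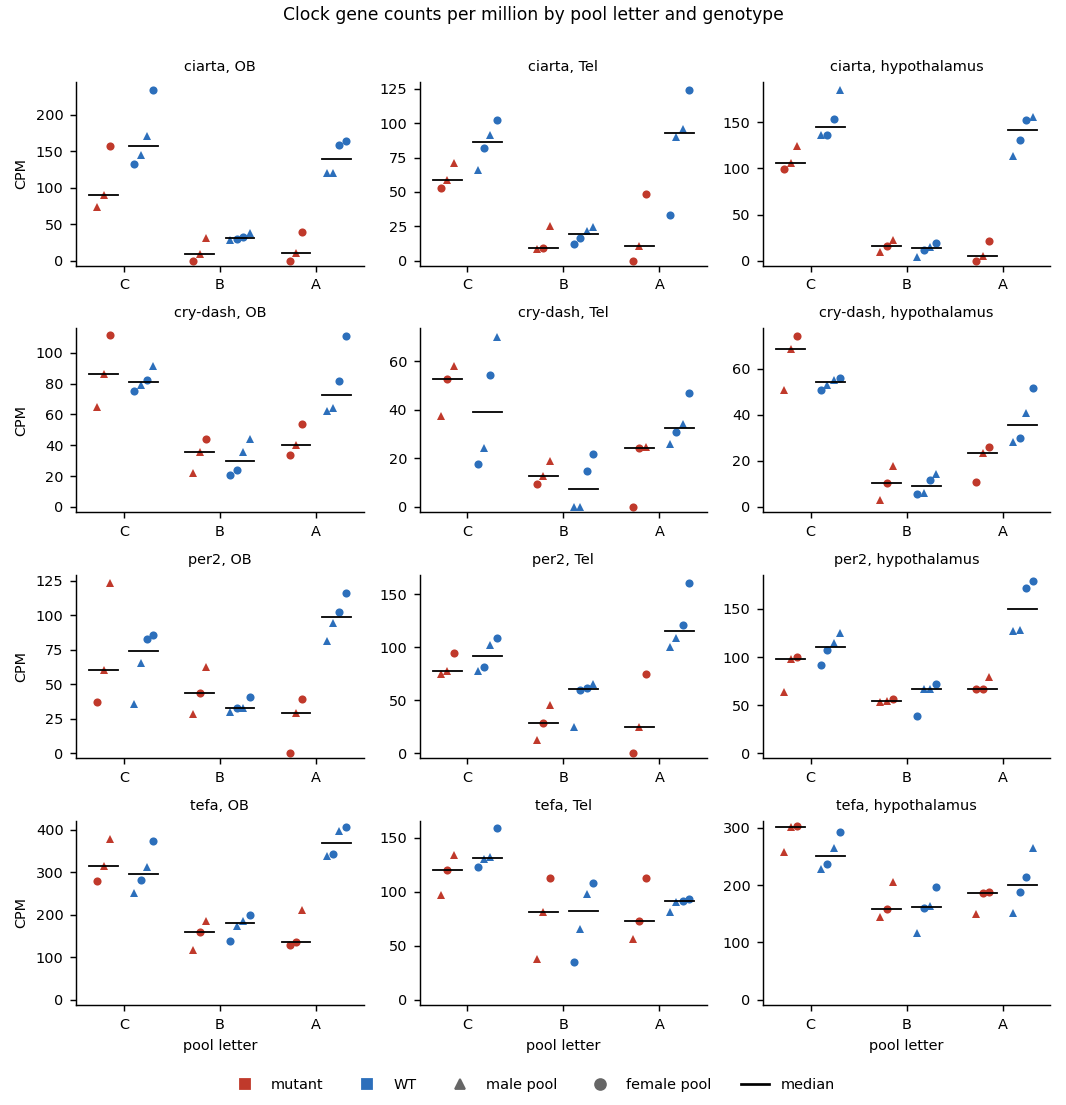
CPM of ciarta, cry-dash, per2 and tefa in every pool (points, 21 per panel; triangles for male and circles for female pools; bars for medians), by pool letter on the x axis, with mutant left of WT, in each of the 3 regions. The WT letter B pools of ciarta lie below the WT letter A and C pools in every region, and the mutant letter A pools of ciarta reach at most 48.6 CPM.

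The period genes, repressors of the core loop, were called in the OB and the hypothalamus. per2 had 91.7, 107, 114 and 125 CPM in the WT hypothalamus of letter C, 38.4, 66.8, 67.0 and 72.2 CPM in that of letter B, and 127, 128, 172 and 179 CPM in that of letter A. The 3 letters did not overlap. The log2 fold change over all pools was 0.81 ± 0.18 for C over B and -1.09 ± 0.19 for B over A (adjusted p of the pool letter 0.000739 by edgeR, Benjamini-Hochberg). per1b was likewise called in the hypothalamus, where its log2 fold change of B over A was -1.56 ± 0.31, and in the OB, at -1.29 ± 0.31. In the OB the call was lost under 10 of 31 alternatives for per2 and 6 of 29 for per1b. In the hypothalamus each gene lost it under 3 of 31. In the Tel the pool letter test called neither period gene, and per2 passed only the contrast of C with B, at 0.90 ± 0.29 (adjusted p = 0.0469 by edgeR, Benjamini-Hochberg, against 0.0786 for the pool letter).

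Among the cryptochromes, cry1b, a repressor paralog, was called in the OB and the hypothalamus. In the OB its WT pools had 39.5, 41.6, 48.2 and 52.9 CPM in letter C, 0, 6.64, 11.9 and 15.7 CPM in letter B, and 39.6, 52.7, 59.0 and 70.0 CPM in letter A. Letter B stood apart from both, with log2 fold changes over all pools of 2.30 ± 0.34 for C over B and -2.31 ± 0.34 for B over A. cry2 was called in the hypothalamus, at 12.04, 24.2, 24.3 and 24.6 CPM in WT letter C pools. It had 1.92, 7.80, 8.68 and 12.6 CPM in WT letter B pools and 29.2, 38.7, 44.3 and 48.6 CPM in WT letter A pools. Letter A was above both other letters with no overlap, while letters C and B overlapped. cry1a, the light-induced cryptochrome, was not called in any region, and its log2 fold changes of C over B were 0.43 in the OB, 0.33 in the hypothalamus and 0.45 in the Tel.

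cry-dash, a DASH-type cryptochrome, was called in all 3 regions. The call was lost under 6 of 24 alternatives in the Tel, 4 of 31 in the OB and 0 of 29 in the hypothalamus. In the hypothalamus the WT pools had 50.8, 53.1, 55.4 and 55.9 CPM in letter C, 5.76, 6.20, 11.7 and 14.5 CPM in letter B, and 28.3, 30.1, 40.8 and 51.9 CPM in letter A, so that B lay below both. The log2 fold change of C over B was 2.63 ± 0.28 in the hypothalamus, 1.84 ± 0.46 in the Tel and 1.42 ± 0.23 in the OB (adjusted p of the pool letter 7.68e-06, 0.0298 and 0.00256, edgeR, Benjamini-Hochberg).

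Of the D-box factors, tefa, an activator, was called in all 3 regions, with a log2 fold change of C over B of 0.92 ± 0.19 in the OB, 0.74 ± 0.15 in the hypothalamus and 0.88 ± 0.22 in the Tel. In the OB its WT pools had 250.0, 282, 311 and 374 CPM in letter C, 139, 174, 186 and 199 CPM in letter B, and 338, 342, 396 and 406 CPM in letter A. Letter B lay below both. The Nfil3 repressors split: nfil3-6 was higher in C than in B in the OB, by 0.91 ± 0.23 on the log2 scale, and nfil3-5 was lower in C than in B in the hypothalamus, at -1.43 ± 0.35.

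The Rev-erb beta genes, repressors in the Rev-erb and ROR loop, were each called in 1 region. nr1d2a had 215, 272, 287 and 336 CPM in the WT OB of letter C, 88.5, 89.2, 104 and 139 CPM in that of letter B, and 225, 239.6, 303 and 316 CPM in that of letter A. Letter B lay below both others, which overlapped. This call, with an adjusted p of 0.044 by edgeR, Benjamini-Hochberg, was lost under 18 of 31 alternatives, while its direction held in all 31. nr1d2b was called in the hypothalamus, with a log2 fold change of C over B of 0.64 ± 0.21 and of B over A of -0.88 ± 0.21.

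A smaller set ran the other way. In the hypothalamus cry3b had 41.5, 45.5, 47.0 and 52.0 CPM in WT pools of letter C, 94.3, 103, 107 and 109 CPM in those of letter B, and 23.3, 25.8, 47.3 and 66.8 CPM in those of letter A. Letter B was here above both. The log2 fold change of C over B was -1.23 ± 0.30 for cry3b and -0.92 ± 0.26 for cry4, a cryptochrome of uncertain role in fish. The casein kinase genes csnk1da and csnk1db, whose products phosphorylate period proteins, and the ROR genes roraa and rorab were not called by the pool letter test in any region where they were tested, nor were arntl1a, bhlhe40, hlfa and cry3a. The contrast of C with B alone did call some of these. arntl1a in the Tel (-1.29 ± 0.36), bhlhe40 in the OB (-0.79 ± 0.23) and cry3a in the hypothalamus (-0.63 ± 0.20) and the Tel (-0.62 ± 0.20) were lower in C, as were cry3b in the OB (-1.31 ± 0.36) and nfil3-5 in the Tel (-1.33 ± 0.39), and csnk1db in the OB was higher (0.62 ± 0.19).

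**Figure D2:**
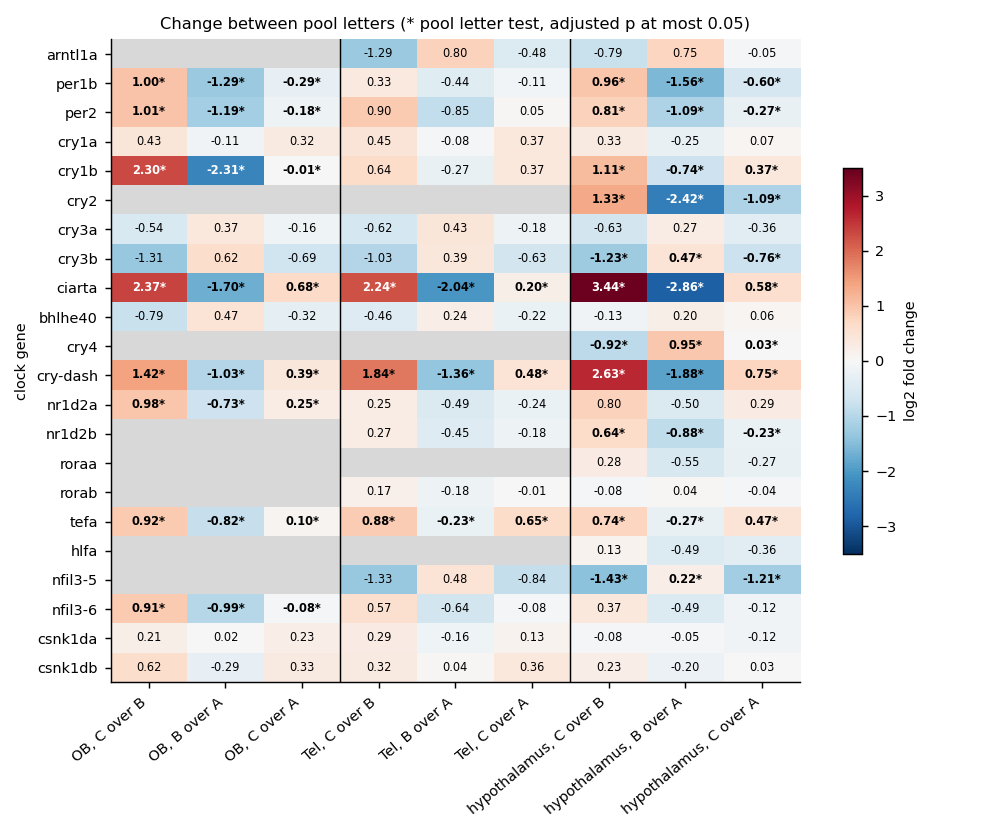
Log2 fold changes between pool letters (columns, in each region) of the 22 clock genes tested in at least 1 region (rows), with group as a covariate. Red is higher in the first letter, blue lower, grey not tested. An asterisk marks a gene whose pool letter test passed in that region. ciarta, cry-dash and tefa are marked in all 3 regions, with positive values for C over B.

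The counts of calls changed with the libraries and UMIs used. With the WT libraries alone, the pool letter test of edgeR called 8 of 14 clock genes in the OB (4.15% of all genes), 9 of 20 in the hypothalamus (5.84%) and 3 of 14 in the Tel (3.47%). With the 9 mutant libraries per region it called 0 of 11 in the OB (1.46% of all genes), 1 of 12 in the hypothalamus (11.2%) and 0 of 11 in the Tel (0%), with 5, 3 and 3 at an unadjusted p under 0.05. With counts thinned to at most 79076 UMIs per library in the OB, 175074 in the hypothalamus and 66680 in the Tel, it called 0 of 12 (0.236% of all genes), 1 of 16 (4.31%) and 0 of 7 (0.629%), with 2, 7 and 0 at an unadjusted p under 0.05, and only ciarta in the hypothalamus was kept. In the OB, 4 genes were called without WT female pool B1 and 5 without WT female pool B2 or WT male pool B2. In the Tel, 1 was called without WT female pool C2 and 5 without mutant male pool A1.

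Other genes also differed between letters, and their part in the clock gene differences was not tested. The pool letter test called 5.77% of all genes in the OB, 19% in the hypothalamus and 9.92% in the Tel. The contrast of C with B alone called 6.48%, 10.6% and 9.38% in the same order. Of 10 glucocorticoid-responsive genes, 9 were tested in the OB, where fkbp5, klf9 and pdk2b were higher in C than in B and mknk2b lower. The median log2 fold change of C over B was 0.57 for the list, against -0.0035 for all genes. In the WT hypothalamus the sum of this list overlapped between letters C and B, at 803 to 1103 and 832 to 1020 CPM. Of the hypoxia-responsive genes tested in the hypothalamus, 1 of 7 was higher in C (higd1a) and 4 were lower (ddit4, egln3, igfbp1a and pfkfb3). Red blood cell genes also moved: 3 of 6 tested in the hypothalamus were higher in C (hbaa1, hbaa2 and hbba2) and hbba1 and slc4a1a lower. For all these lists, higher and lower give the direction of C over B only. The red blood cell sum in the hypothalamus was lowest by median in letter A, at 3846 CPM in WT and 2641 CPM in mutant pools. Of 10 immediate early genes tested in the Tel, egr4, fosab and junbb were higher in C. Markers of the pineal gland and retina, organs with strong clocks of their own, reached high levels in some Tel libraries: all 15 were counted, and their sum ran from 26.2 to 2965 CPM in mutant pools and 70.9 to 2262 CPM in WT pools of letter C, from 75.3 to 2044 CPM in mutant pools and 98.0 to 299.9 CPM in WT pools of letter B, and from 0 to 318 CPM in mutant pools and 142 to 1823 CPM in WT pools of letter A. Of the 6 tested in the Tel, gnat1 was called, higher in C than in B. In the OB the same sum was 20.6 to 27.9 CPM in mutant and 44.7 to 71.3 CPM in WT pools of letter C. It was 29.2 to 98.4 CPM in mutant and 44.3 to 65.4 CPM in WT pools of letter B. For letter A it was 61.8 to 87.4 CPM in mutant and 63.3 to 121 CPM in WT pools. Markers of cell types moved in the OB as well. Radial glia genes, a list that holds cyp19a1b itself, summed to 6318 to 9883 CPM in mutant and 13925 to 21494 CPM in WT pools of letter C, 3766 to 4926 CPM in mutant and 3819 to 9869 CPM in WT pools of letter B, and 1639.95 to 5329 CPM in mutant and 8002 to 15014 CPM in WT pools of letter A. Of the 6 tested, glula was called, higher in C than in B. Olfactory sensory genes summed to 1319 to 1637 CPM in mutant and 1208 to 1409 CPM in WT pools of letter C, and to 1691 to 3602 CPM in mutant and 2109 to 3057 CPM in WT pools of letter B. Of the 5 tested, ompa and s100z were called, lower in C. In bulk RNA, fewer cells of a type and less RNA per cell cannot be told apart.

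Genes of clock protein turnover were read against the same shares of all genes called by the pool letter test. Of 10 tested in the OB none was called (5.77% of all genes). In the Tel, fbxl3a, an F-box gene whose product marks cryptochromes for degradation in mammals, was lower in C than in B, 1 of 11 tested (9.92%). In the hypothalamus fbxl3a, cul1b and ncor1 were lower in C, 3 of 13 tested (19%). A further list named 16 clock transcription factors and outputs, of which 11 had a row; 1 of them was tested in each of Tel and hypothalamus, and neither was called.

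Between genotypes, clock genes were called within letter A and not within B or C. This comparison was chosen after the data were seen. It compared genotypes within a letter, which held 3 mutant and 4 WT pools, in 1 model of group, letter and the interaction of genotype with letter. The change within a letter was the mean over the sexes, fitted with letter terms that both sexes shared. A call needed at least 1.5-fold and an adjusted p no higher than 0.05. Within letter A, 7 of 14 clock genes were called in the OB (2.9% of all genes), 4 of 22 in the hypothalamus (0.681% of all genes) and 3 of 18 in the Tel (0.902% of all genes). Within letter B none was called in the OB (0% of all genes), the Tel (0%) or the hypothalamus (0.17%), and 1, 0 and 1 had an unadjusted p under 0.05. Within letter C none was called in the OB (3.87% of all genes), the Tel (3.25%) or the hypothalamus (3.25%), and 2, 1 and 4 had an unadjusted p under 0.05. DESeq2 also called 0 within B and within C, and 16 within A. Leaving out 1 pool gave 1 call within B, nfil3-5 in the hypothalamus without mutant male pool B1, and 1 within C without mutant female pool A2 (nfil3-6 in the OB), mutant female pool C1 or mutant male pool B2 (roraa in the hypothalamus).

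Among the repressors, ciarta was lower in mutants within letter A in all 3 regions. In the hypothalamus it had 0, 4.69 and 20.7 CPM in mutant pools of letter A, against 113, 131, 153 and 156 CPM in WT pools, and the mutant values stand for 5 UMIs in all. The groups did not overlap, and the log2 fold change was -3.74 ± 0.48 (adjusted p = 0.000164 by edgeR, Benjamini-Hochberg). In the OB the values were 0, 10.9 and 39.3 CPM in mutants and 121, 121, 158 and 164 CPM in WT, also without overlap, with a log2 fold change of -2.77 ± 0.44. In the Tel they were 0, 10.6 and 48.6 CPM in mutants and 33.5, 89.6, 96.1 and 124 CPM in WT, which overlapped, with a log2 fold change of -2.65 ± 0.60. The mutant values stand for 10 UMIs in all in the OB and 5 in the Tel.

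In the other letters ciarta was not called. In the hypothalamus, mutant pools of letter C had 99.9, 106 and 125 CPM against 136, 136, 154 and 185 CPM in WT pools of letter C, without overlap and with a log2 fold change of -0.48 ± 0.26. Mutant pools of letter B had 8.96, 15.3 and 22.3 CPM against 3.61, 11.7, 14.9 and 19.2 CPM in WT pools of letter B, a log2 fold change of 0.46 ± 0.54. The mutant pools of letter A overlapped the letter B pools of both genotypes.

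Among the period genes, per2 within letter A had 0, 29.1 and 39.3 CPM in the mutant OB against 81.7, 94.4, 103 and 116 CPM in the WT OB, and 0, 24.7 and 75.2 CPM in the mutant Tel against 100.2, 109, 121 and 161 CPM in the WT Tel. Neither pair of groups overlapped, and the log2 fold changes were -1.71 ± 0.42 and -2.13 ± 0.46. The mutant values stand for 15 UMIs in all in the OB and 9 in the Tel. In the hypothalamus the 3 mutant pools, at 66.3, 67.2 and 79.7 CPM, also lay below the 4 WT pools, at 127, 128, 172 and 179 CPM, and the adjusted p was 0.0577 by edgeR, Benjamini-Hochberg. per1b was called in the OB, with a log2 fold change of -2.01 ± 0.48, where the mutant pools of letter A held 10 UMIs in all.

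In the OB the Rev-erb and D-box genes were also lower in mutants within letter A. nr1d2a had 58.3, 108 and 124 CPM in mutants against 225, 239.6, 303 and 316 CPM in WT. nfil3-6 had 54.1, 58.3 and 129 CPM in mutants against 244, 249, 337 and 422 CPM in WT. tefa had 129, 135 and 211 CPM in mutants against 338, 342, 396 and 406 CPM in WT. None of these overlapped, and the log2 fold changes were -1.65 ± 0.28 for nr1d2a, -1.85 ± 0.30 for nfil3-6 and -1.15 ± 0.24 for tefa. nr1d2a was also called in the hypothalamus, at -1.48 ± 0.36 and an adjusted p of 0.0497 by edgeR, Benjamini-Hochberg, a call that 20 of 28 alternatives lost.

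The cryptochromes cry3a and cry3b were higher in mutants within letter A. cry3a had 255, 271 and 354 CPM in the mutant OB against 95.1, 97.4, 100.2 and 156 CPM in the WT OB, 243, 438 and 451 CPM in the mutant Tel against 114, 115, 152 and 200.3 CPM in the WT Tel, and 232, 352 and 525 CPM in the mutant hypothalamus against 94.7, 158, 197 and 198 CPM in the WT hypothalamus. The groups did not overlap in any region, and the log2 fold changes were 1.40 ± 0.23, 1.41 ± 0.24 and 1.26 ± 0.27. cry3b had 111, 119 and 299.9 CPM in the mutant hypothalamus of letter A against 23.3, 25.8, 47.3 and 66.8 CPM in the WT hypothalamus, a log2 fold change of 2.18 ± 0.30. Its mutant pools of letter B, at 115, 123 and 125 CPM, overlapped them.

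**Figure D3:**
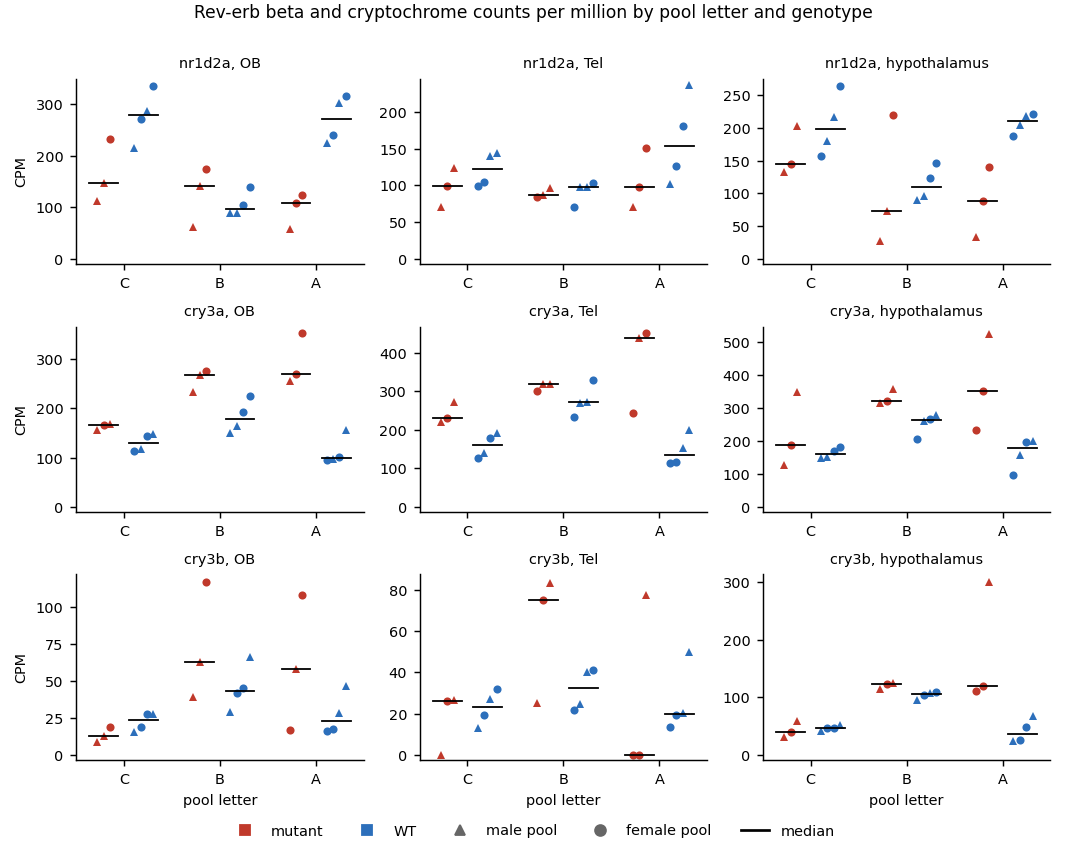
CPM of nr1d2a, cry3a and cry3b in every pool (points, 21 per panel; triangles for male and circles for female pools; bars for medians), by pool letter on the x axis, with mutant left of WT, in the 3 regions. Within letter A the mutant pools are below WT for nr1d2a in the OB and the hypothalamus and above WT for cry3a in all 3 regions.

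Whether the genotype change differed between letters was tested by the interaction. It was called for 1 clock gene in the OB, nr1d2a (adjusted p = 0.011 by edgeR, Benjamini-Hochberg), where 1.02% of all genes were called, and for 2 in the hypothalamus, ciarta and cry3b (both adjusted p = 0.0484), which were the only 2 genes called there (0.0309% of all genes). None was called in the Tel, where no gene was (0%); 5 clock genes had an unadjusted p under 0.05 there, and DESeq2 called none. For the other genes called within letter A, a difference between letters did not pass this test. Only nr1d2a in the OB was called when any of 9 pools was left out, namely mutant female A1, mutant male C2, WT female A1, A2, B1, C1 or C2 and WT male A1 or B1.

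The within-A calls changed with 1 pool. Without mutant male pool A1, which leaves only female mutant pools in letter A, 2 of the 14 calls were kept: ciarta in the hypothalamus, with a log2 fold change of -3.15, and cry3a in the OB, at 1.55. All 14 kept their direction, at -0.98 to -3.15 for the lower genes and 0.98 to 1.55 for the higher ones, and no interaction was then called. Without mutant female pool A2, 9 were called. The letter A mutant pools also held the library of lowest total in each region, and 1 of the 3 held no ciarta UMI in each region. With the libraries of low total left out, 10 of the calls held in the OB and the hypothalamus, and all 14 genes kept their direction. In the Tel this left mutant male pool A1 as the only mutant pool of letter A, so the direction there rests on 1 library. With the library total alone as the scale, the share of higher genes among all genes called within A was 39.4% in the Tel and 41.9% in the hypothalamus, against 27.5% and 27.3% with the main scaling, and nr1d2a was no longer called in the hypothalamus.

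**Figure D4:**
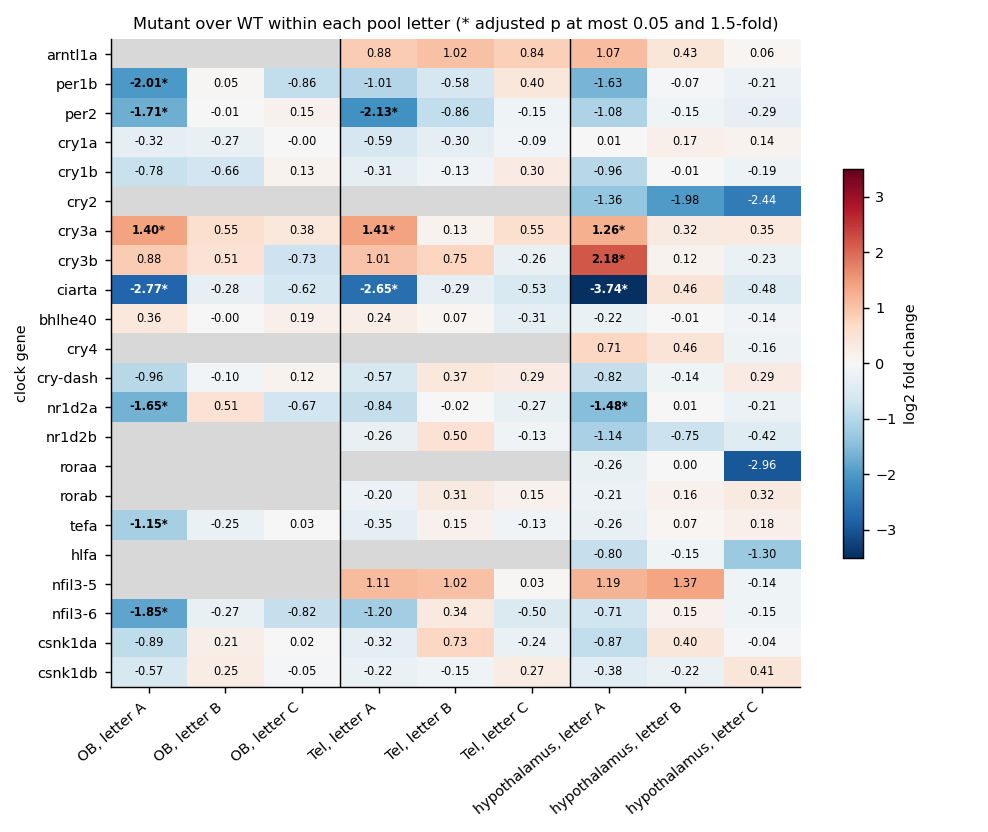
Log2 fold changes of mutant over WT within each pool letter (columns, in each region) of the 22 clock genes tested in at least 1 region (rows). Red is higher in mutants, blue lower, grey not tested. An asterisk marks an adjusted p of 0.05 or less with at least 1.5-fold. All 14 asterisks lie in the letter A columns.

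Glucocorticoid-responsive genes also differed between genotypes within letter A, and neither their part nor that of the other lists given here was tested. The calls of these lists were not recomputed without mutant male pool A1. In the OB, 2.9% of all genes were called within letter A. Of 9 of the list tested there, cebpd, fkbp5, klf9 and pdk2b were lower in mutants. The list median log2 fold change was -0.95, against -0.03 for all genes. The summed level of the list was 730.5 to 1369.6 CPM in mutant pools of letter A and 1793 to 1976 CPM in WT pools of letter A. It was also lower in mutants in letter C, at 1319 to 1413 CPM against 1958 to 2257.5 CPM. In letter B the groups overlapped, at 1210 to 1861 CPM in mutant and 1216 to 1659 CPM in WT pools. In the Tel and the hypothalamus the sum was likewise lower without overlap in letters A and C and overlapped in letter B. Other lists moved within letter A of the OB too. The radial glia sum given above was lower in all 3 mutant pools than in the WT pools, and glula was called, lower in mutants. That sum was also lower in mutants without overlap in letter C, and the groups overlapped in letter B. Within letter A, skeletal muscle genes summed to 189 to 286 CPM in mutant pools and 93.3 to 116 CPM in WT pools, and ckma was called, higher in mutants. In letter C the muscle sum was 210 to 353 CPM in mutant and 107 to 175 CPM in WT pools, and in letter B the groups overlapped. Immediate early genes of the letter A pools summed to 247 to 271 CPM in mutant pools and 306 to 476 CPM in WT pools, and btg2 was called, lower in mutants. In letter B the sum was higher in mutants without overlap, at 276 to 394 CPM against 200 to 252 CPM in WT. In letter C the groups overlapped, at 242 to 401 CPM in mutant and 310 to 419 CPM in WT pools. Of the turnover genes tested in the OB, usp2a, a deubiquitinase gene, was lower, 1 of 10. The median of the 14 clock genes tested there was -0.92.

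Over all letters, no clock gene was called between genotypes by edgeR in the fit without a block. With the letter as a block in the model, cry3a and nfil3-6 were called in the female OB and cry2 in the male hypothalamus. Without the block, in females 0 of 14 clock genes were called in the OB (2.59% of all genes), 0 of 22 in the hypothalamus (3.56%) and 0 of 18 in the Tel (2.46%), with 2 in each region at an unadjusted p under 0.05. In males, 0 were called in the OB (0.0221% of all genes), the hypothalamus (1.93%) and the Tel (0.0225%), with 3, 5 and 5 at an unadjusted p under 0.05. DESeq2 called 1 clock gene in females, cry3a in the OB, and 0 in males. With edgeR, cry3a in the female OB was called without WT female pool B1, WT female pool B2 or mutant female pool C1, nfil3-6 there without WT female pool B1, and cry3a in the male hypothalamus without mutant male pool C1. In these fits the letters of a group were pooled, and the groups do not hold the letters in the same numbers.

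Some genes of lowest p recurred over regions, which were treated as parts of the same pools and so are not independent. In the female OB, cry3a had a median of 274 CPM in mutants (167 to 354, n = 4) and 128 CPM in WT (95.1 to 225, n = 6), a log2 fold change of 0.90 ± 0.27 with an adjusted p of 0.0852 by edgeR, Benjamini-Hochberg. nfil3-6 had a median of 91.6 CPM in mutants (43.7 to 158) and 329 CPM in WT (109.9 to 422), at -1.36 ± 0.42 and an adjusted p of 0.0862 by the same test. Both pairs of groups overlapped. cry3a was also among the lowest in the OB of males (log2 fold change 0.64), the Tel of both sexes (0.67 in females and 0.68 in males) and the hypothalamus of males (0.74), and nr1d2a in the OB and the Tel of males (-0.88 and -0.65). In females, nfil3-5 in the Tel and nr1d2b and roraa in the hypothalamus completed the set, at 1.33, -0.89 and -1.76. cry2 in the male hypothalamus was listed at a median of 0 CPM in mutants (0 to 7.81, n = 5). In WT males it had 24.2 CPM (8.68 to 48.6, n = 6). These groups did not overlap, and the adjusted p was 0.13 by edgeR, Benjamini-Hochberg. The mutant male libraries held 0, 1, 0, 2 and 0 UMIs of cry2 there. For roraa, the hypothalamus libraries of mutant females held 0, 1, 2 and 2 UMIs.

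No clock gene was called between the sexes. Males against females in mutants gave 0 calls in the OB (2.26% of all genes), the hypothalamus (2.38%) and the Tel (1.19%), with 0, 1 and 0 at an unadjusted p under 0.05, and in WT 0 in the OB (0.0885%), the hypothalamus (0.0155%) and the Tel (0.0451%), with 1, 0 and 0. DESeq2 called 0 in both. In WT the lowest p values were those of nfil3-6 in the OB (log2 fold change of males over females -0.67) and cry4 in the hypothalamus (-0.68), and in mutants that of nfil3-6 in the hypothalamus (-0.57). The interaction of genotype with sex gave 0 calls in the OB (0.199% of all genes), the hypothalamus (2.04%) and the Tel (0.496%), 0 at an unadjusted p under 0.05, and 0 by DESeq2.

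The 3 regions of the same pools were compared over all 63 libraries with the pool as a block, on 21 clock genes, and CPM in this and the next paragraphs are scaled over all libraries together. The hypothalamus against the Tel gave 8 calls, all higher in the hypothalamus (16.2% of all genes were called). The OB against the Tel gave 6, 4 higher and 2 lower (59% of all genes). The OB against the hypothalamus gave 11, 3 higher and 8 lower (60% of all genes). With the main scaling, clock genes were called less often than all genes in both OB comparisons. They were called more often for the hypothalamus against the Tel. The changes below are given for single genes and not for the set. Scaling by the library total alone moved the median of all genes to -0.32 for the OB against the Tel and -0.34 against the hypothalamus, from values within 0.1 of 0 with the main scaling. The calls for the OB were then 4 higher and 5 lower against the Tel, and 2 higher and 13 lower against the hypothalamus. With DESeq2's size factors they were 6 higher and 1 lower, and 5 higher and 8 lower. Without mutant male pool B2, the Tel library of which held oxt, 10 were called for the hypothalamus against the Tel, 6 for the OB against the Tel and 13 for the OB against the hypothalamus. Every gene named below as called kept its direction under both scalings.

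Among the genes higher in the OB, tefa had a median of 292 CPM in the OB (116 to 495), 188 CPM in the hypothalamus (110.1 to 281) and 87.9 CPM in the Tel (33.5 to 151), n = 21 each. It was higher in the OB than in the Tel in 21 of 21 pools, with a log2 fold change of 1.79 ± 0.11, and higher in the hypothalamus than in the Tel in 21 of 21, at 1.17 ± 0.11. It was higher in the OB than in the hypothalamus in 18 of 21 pools, at 0.62 ± 0.09. This call was lost under 9 of 31 alternatives, and with the library total alone the change fell to 0.33, under the fold threshold.

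cry-dash and nr1d2a followed the OB. cry-dash had a median of 71.6 CPM in the OB (23.8 to 126), 27.8 CPM in the hypothalamus (3.03 to 68.6) and 23.5 CPM in the Tel (0 to 67.5). It was higher in the OB in 21 of 21 pools against each other region, with log2 fold changes of 1.22 ± 0.14 over the hypothalamus and 1.43 ± 0.16 over the Tel. nr1d2a was higher in the OB than in the Tel in 19 of 21 pools, at 0.99 ± 0.12, and ciarta in 19 of 21, at 1.095 ± 0.14. csnk1da was higher in the OB than in the hypothalamus in 20 of 21, at 0.90 ± 0.11.

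bhlhe40 and rorab ran opposite. bhlhe40, the Dec1 repressor, had a median of 81.0 CPM in the OB (43.2 to 203), 318 CPM in the hypothalamus (172 to 439.6) and 209 CPM in the Tel (90.7 to 309). It was lower in the OB than in the hypothalamus in 21 of 21 pools, with a log2 fold change of -1.82 ± 0.10, and lower than in the Tel in 20 of 21, at -1.20 ± 0.10. rorab, a ROR activator, was higher in the hypothalamus than in the Tel in 20 of 21 pools, at 1.09 ± 0.14, and lower in the OB than in the hypothalamus in 21 of 21, at -1.54 ± 0.15. arntl1a was lower in the OB than in the hypothalamus, at -0.78 ± 0.21, and than in the Tel, at -0.70 ± 0.23, and the call against the Tel was lost with DESeq2's size factors.

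The other genes of the hypothalamus were cryptochromes and D-box factors. Over the Tel, the log2 fold changes were 1.49 ± 0.23 for cry4, 1.25 ± 0.17 for cry3b, 0.93 ± 0.31 for cry2, 0.98 ± 0.23 for hlfa, 0.98 ± 0.11 for nfil3-6 and 0.61 ± 0.09 for bhlhe40. cry4 and nfil3-6 were higher in 21 of 21 pools. The Tel libraries held only 54 UMIs of cry4 and 52 of cry2 in all, and some held none. In the OB against the hypothalamus, cry3b (-0.88), cry4 (-0.92), hlfa (-1.24), nfil3-5 (-0.76) and nr1d2b (-0.78) were lower. Each adjusted p of these region calls was 0.0145 or less by edgeR, Benjamini-Hochberg.

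**Figure D5:**
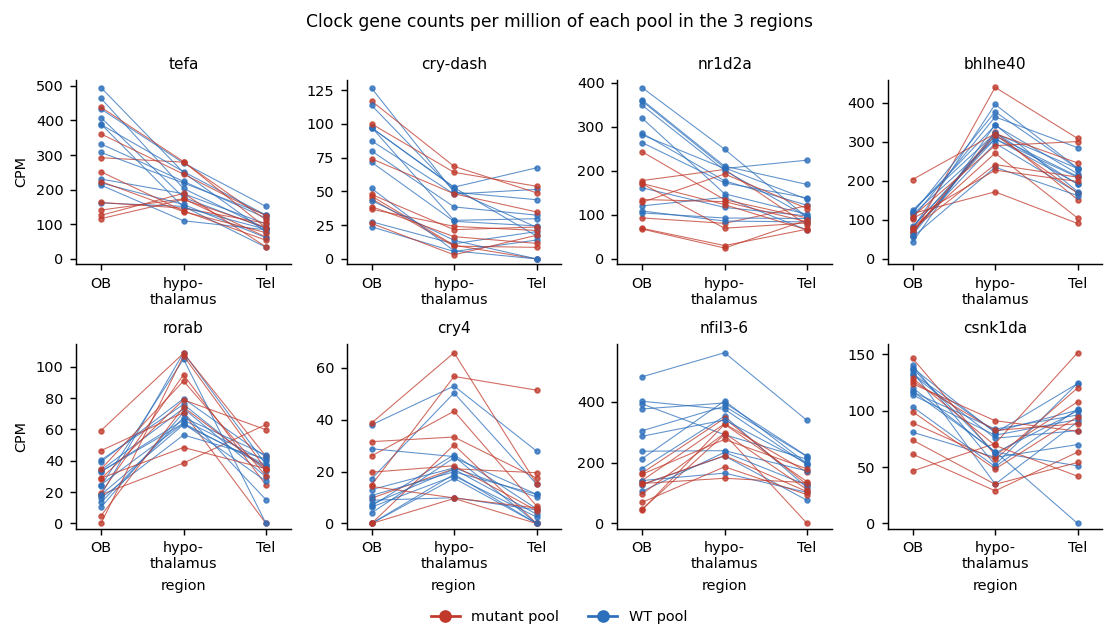
CPM of 8 clock genes in the OB, the hypothalamus and the Tel, with a line for each of the 21 pools (mutant red, WT blue), scaled over all 63 libraries. By median, tefa and cry-dash are highest in the OB and bhlhe40 and rorab in the hypothalamus. cry4 and nfil3-6 are higher in the hypothalamus than in the Tel in all 21 pools. The Tel libraries held 54 UMIs of cry4 in all.

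The regions also differ in cell makeup, and its part in these differences was not tested. Whether the OB libraries held OB tissue alone was not tested either. Neuron markers summed to a median of 1414 CPM in the OB (762 to 2233), 12430.3 CPM in the hypothalamus (8963 to 19358) and 9184 CPM in the Tel (8004 to 11685). Microglia markers summed to 15269.9 CPM in the OB (10324.5 to 19244), 571 CPM in the hypothalamus (420.1 to 779) and 538 CPM in the Tel (368 to 1077), and p2ry12 was at 0 in every OB library. Oligodendrocyte markers summed to 168 CPM in the OB, 3581 CPM in the hypothalamus and 408 CPM in the Tel.

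No clock gene was called for a region difference that depends on genotype. The interaction of region with genotype gave 0 calls among 21 clock genes (0.0149% of all genes), with 1 at an unadjusted p under 0.05 by edgeR and 0 called by DESeq2.

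The 16 genes that were too scarce to test are given as UMIs over the 3 regions. nr1d1, the Rev-erb alpha repressor, had 32 UMIs in the 12 WT libraries of letter C, 4 in those of letter B and 39 in those of letter A. per3 had 44, 21 and 60, and per1a 26, 11 and 41, in the same order. Relative to the summed counts of those libraries, the levels were 5.41, 0.77 and 6.54 CPM for nr1d1 and 7.45, 4.04 and 10.1 CPM for per3. Among these WT libraries letter B was lowest for all 3. In mutants this order did not hold for every gene: nr1d1 was at 1.07 CPM in letter C, 2.87 in letter B and 2.24 in letter A, and per3 at 6.95, 3.45 and 1.49 CPM. clocka, at 20, 27 and 32 UMIs, and rorca, at 61, 52 and 49, did not have this order. These genes were picked after their values were seen, and no test was made.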

How the data were processed

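The authors made 3′ BRB-seq libraries and aligned the reads to the danRer11 transcriptome (BWA 0.7.4.4 and danRer11 are listed in the submitters' processing notes). They left out multi-mapping reads and deposited UMI counts per gene, not normalised, for each library, and 0 columns had no sample. Counting at the 3′ end cannot tell isoforms apart. The genes and lists were chosen with earlier results of these data known, and the genotype comparison within a letter was chosen after seeing the data. Described with values are the clock genes called in a comparison and, where none was, the 2 of lowest unadjusted p. Genes of other lists are named beyond the 3 of lowest adjusted p where they were called, after their values were seen.

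Counts were tested in R 4.3.3 with edgeR 4.0.16 (quasi-likelihood F test, TMM scaling, filterByExpr), with Benjamini-Hochberg adjustment over all genes tested. A call needed an adjusted p of 0.05 or less and, for a pair of groups, 1.5-fold or more. Models held the 4 groups in each region, the groups and the letter, or these with the interaction of genotype and letter. The regions were compared over 63 libraries with the pool as a block. The code was tested on simulated data. Alternatives were DESeq2 1.42.0, limma 3.58.1 on rlog values, other scalings and filters, thinned counts, blocks and leaving out each pool. Of 1953 pairs of libraries, 0 were identical. In a library, 3 counts were worth 2.90 to 139.9 CPM, which covers counting error only. RefSeq names matched 38 of 38 symbols, 3 of them (arntl1a, arntl1b and arntl2) as bmal names.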

Additional observations from a re-analysis of the deposited data

Results flagged for a closer look

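In 3 cases the genotype change differed between the pool letters by the interaction test of edgeR with Benjamini-Hochberg adjustment: nr1d2a in the OB (adjusted p = 0.0110), ciarta in the hypothalamus (adjusted p = 0.0484) and cry3b in the hypothalamus (adjusted p = 0.0484). None of the 3 passed without mutant male pool A1. Of 114 groups of 4 to 6 libraries checked for a library far from the others, 4 had one, and chance gives about 1 in 20. In the Tel, nr1d2a was at 237 CPM in WT male pool A1. In the hypothalamus, per2 was at 38.4 CPM in WT female pool B2, low among the WT pools of letter B, cry1b was at 82.7 CPM in WT female pool C1, high among those of letter C, and cry2 was at 12.04 CPM in WT female pool C2, low among those of letter C.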

How the results depend on the processing

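Of 1804 values of single clock genes under alternatives, 1654 kept their call, 150 lost it and 0 changed direction. Only genes called in the main fits were counted, and only where the alternative still tested them. Most alternatives left out 1 pool, and the one without a fold threshold could not lose a call. The tally is therefore a description and not a test of the calls. Counts of called clock genes moved as follows. For the pool letter, a minimum of 10 counts in every library gave 0 in the OB, 2 in the hypothalamus and 1 in the Tel, thinned counts 0, 1 and 0, mutant libraries 0, 1 and 0, female libraries 3 and 1 in the OB and the Tel, male libraries 2, 4 and 0, and DESeq2 5 in the Tel. The interaction of genotype and letter gave 1 with DESeq2's size factors, 5 with no filter, 0 with the strict filter and 0 with thinned counts. Within letter A the strict filter left 3 and thinning 1, and with no filter 1 was called within B and 3 within C. For females, DESeq2 and the unfiltered fit each gave 1. For the OB against the Tel, no filter gave 11, the strict filter 1 and no fold threshold 12. For the OB against the hypothalamus, the strict filter gave 1, thinning 4, no fold threshold 17 and mutant libraries 7. For the hypothalamus against the Tel they were 0 with the strict filter, 15 with no fold threshold and 5 with mutant libraries.

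Leaving out 1 pool gave 4 to 9 for the letter in the OB, 10 to 14 in the hypothalamus and 1 to 5 in the Tel, 0 to 4 for the interaction with genotype (1 without any of 9 pools), 2 to 15 within letter A, 0 to 1 within B, 0 to 1 within C, 0 to 2 for females, 0 to 1 for males, 7 to 10 for the hypothalamus against the Tel, 6 to 7 for the OB against the Tel and 11 to 13 for the OB against the hypothalamus.

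Pool codes are shared between groups, and the main fits did not pair groups by code. In no comparison did every pair of same-coded libraries correlate above 0.1, nor did each correlate best with its own code. The mean correlation of same-coded pairs was positive in every comparison, at 0.056 to 0.21. With 3 to 6 pairs each, this check could not exclude a pairing. With the pool code as a replicate block, 2 clock genes were called in females and 1 in males, and the letter as a block gave 2 and 1. Without the replicate block the region counts were 8, 6 and 12. By library total, 18.5% of the genes called between C and B in the hypothalamus were higher, against 33.7% by TMM. The causes were not tested. The shallowest libraries limit what could be called for genes of a few UMIs.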
